A study of Mus musculus with 6 samples.

Results

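Mitochondrial biogenesis in muscle depends on a small set of nuclear regulators, and 10 of them were followed here in muscle that lacks the transcription factor TFEB. They are the coactivators Ppargc1a (PGC1α) and Ppargc1b (PGC1β), the receptors Ppara, Ppard, Pparg, Esrra (ERRα) and Esrrg (ERRγ), the nuclear respiratory factors Nrf1 and Gabpa, and the mitochondrial transcription factor Tfam. The members were chosen by name, with earlier results of these data known. Every probe set whose single gene symbol is that of a member was kept. All 10 genes had a probe set of their own, which gave 17 of the 22626 probe sets tested and 10 of the 12393 genes with a probe set of their own. Ppargc1a was read by 5 probe sets, Nrf1 by 3, Gabpa by 2 and the remaining 7 genes by 1 each.

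Gene expression was measured on Affymetrix arrays in the muscle of 6 C57BL/6 mice aged 1 month, 1 array for each mouse. The groups were 3 wild-type (WT) mice and 3 Tcfeb KO mice, called TFEB KO here, and the labels name the arrays of a group biological replicates. The KO mice came from a cross of mice with a floxed Tcfeb gene to MLC1f-Cre transgenic mice, in which the promoter of a fast myosin light chain drives Cre in muscle fibers, so that other cells of the muscle can still hold an intact gene. The sources used here do not name the muscle that was taken, or say whether the WT mice carried Cre or floxed alleles. Values are log2 expression values that the authors made with RMA, and differences are TFEB KO minus WT on this log2 scale.

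The coactivators PGC1α and PGC1β do not bind DNA themselves. They are recruited by DNA-binding factors, among them the PPARs, which respond to fatty acids and act on genes of lipid oxidation, the ERRs, which act on genes of oxidative phosphorylation and the citrate cycle, and NRF1 and the GABP complex, which act on nuclear genes of the respiratory chain. TFAM is encoded in the nucleus, imported into mitochondria and needed there to transcribe and maintain mitochondrial DNA. TFEB binds CLEAR elements, which have the E-box CACGTG at their core, and the question of the comparison is what the loss of TFEB does to the transcripts of these regulators.

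The promoters of the members are shown first, as the windows searched for elements of TFEB and of the members themselves. In the RefSeq table (GRCm38.p6), 9 of the 10 members had 15 windows that run from 250 bases before to 50 bases after an annotated start, and Ppargc1b had none. Motifs were searched on both strands. The E-box CACGTG was present in 0 of the 15 windows, beside 7.15% of all 32851 windows of the same length, and the full CLEAR element TCACGTGA, which contains it, also in 0, beside 0.974%. The ERR element TCAAGGTCA was in 0 windows (0.423% of all), the NRF1 core GCATGCGC in 2 (2.71% of all), those of Ppara and Esrra, and the GABP element CCGGAAGT in 1 (3.89% of all), that of Tfam. A match is only a match of letters, and its absence is limited to this window. The 250 bases before the start are given for Ppargc1a and Ppara, the members whose values the results turn on, and 40 bases around the match for Esrra and Tfam. Capitals mark the matched letters, which in Ppara are 2 overlapping matches of the NRF1 core, and the sequence of Ppargc1a has none.
Ppargc1a, chr5:51567726-51567975, minus strand: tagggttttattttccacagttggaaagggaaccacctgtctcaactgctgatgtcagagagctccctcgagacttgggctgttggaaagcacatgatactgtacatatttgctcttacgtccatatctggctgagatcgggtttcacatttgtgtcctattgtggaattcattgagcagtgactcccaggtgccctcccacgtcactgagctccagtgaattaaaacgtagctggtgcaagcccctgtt
Ppara, chr15:85735526-85735775, plus strand: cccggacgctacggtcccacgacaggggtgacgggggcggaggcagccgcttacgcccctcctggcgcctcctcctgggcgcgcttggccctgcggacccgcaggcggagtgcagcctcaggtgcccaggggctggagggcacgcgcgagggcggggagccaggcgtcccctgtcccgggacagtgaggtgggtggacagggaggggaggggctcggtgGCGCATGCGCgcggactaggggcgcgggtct
Esrra, chr19:6921819-6921858, minus strand: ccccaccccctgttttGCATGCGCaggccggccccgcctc
Tfam, chr10:71238068-71238107, minus strand: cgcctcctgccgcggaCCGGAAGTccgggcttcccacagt

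The study also listed CLEAR sites near TFAM, NRF1 and NRF2, printed here with the 6 bases of the E-box in capitals.
TFAM, first site: agtcCACGTGatct
TFAM, second site: agatCAAGTGaaga
NRF1: tcctCATCTGactc
NRF2, first site: agggCACTTGatct
NRF2, second site: gtctCATGTGatgg
Of these, only the first TFAM site has the core CACGTG, and the others have another E-box of the form CANNTG. By chromatin immunoprecipitation in muscle overexpressing TFEB, the study reported TFEB on the NRF1 and NRF2 promoters but not on that of TFAM. The forward primer listed with the NRF1 site lies in a promoter window of Nrf1. The first NRF2 site and both primers listed with it lie in the window of E030042O20Rik at chr2:75706635-75706934, beside that of Nfe2l2 on the other strand (chr2:75704614-75704913), and the letters of this site also occur in the window of Gm30684. The name NRF2 is used both for the GABP complex, of which Gabpa is the DNA-binding subunit, and for Nfe2l2, a factor of the antioxidant response. The primer match lies beside Nfe2l2, so the arrays' values for Nfe2l2 are given with those of Gabpa.

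None of the 10 regulators passed the test in TFEB KO muscle. Of the 17 probe sets, 0 were higher and 0 were lower at an adjusted p under 0.05 from limma, where 0.751% of all probe sets were higher and 0.844% were lower. At the level of genes, each read by its brightest probe set, 0 of 10 passed, beside 0.871% higher and 0.702% lower among all genes. The differences lay below 0 in 12 of 17 probe sets, beside 54.4% of all probe sets, and the largest were those of Ppara, Ppargc1a and Ppargc1b. At an unadjusted p under 0.05, 6 of 17 probe sets were lower (9.4% of all probe sets) and 0 were higher (7.81%), and they were 4 of Ppargc1a and those of Ppargc1b and Ppara. By gene, 3 of 10 were lower (8.66% of all genes) and 0 higher (8.49%). In 6 of 17 probe sets all TFEB KO arrays lay below all WT arrays (13.3% of all probe sets), namely 2 of Ppargc1a, those of Ppargc1b, Ppara and Esrra, and 1 of Nrf1, and in 0 they lay above (9.77%). The methods' t-test without adjustment gave 4 lower (8.59%) and 0 higher (5.91%), those of Ppara and Ppargc1b, 1 of Ppargc1a and 1 of Nrf1, and after Benjamini-Hochberg adjustment it gave 0. The median difference over the 10 genes was -0.15, beside -0.01 over all genes. For a single gene, an exact permutation test of 3 arrays against 3 cannot go below p = 0.10.

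**Figure D1:**
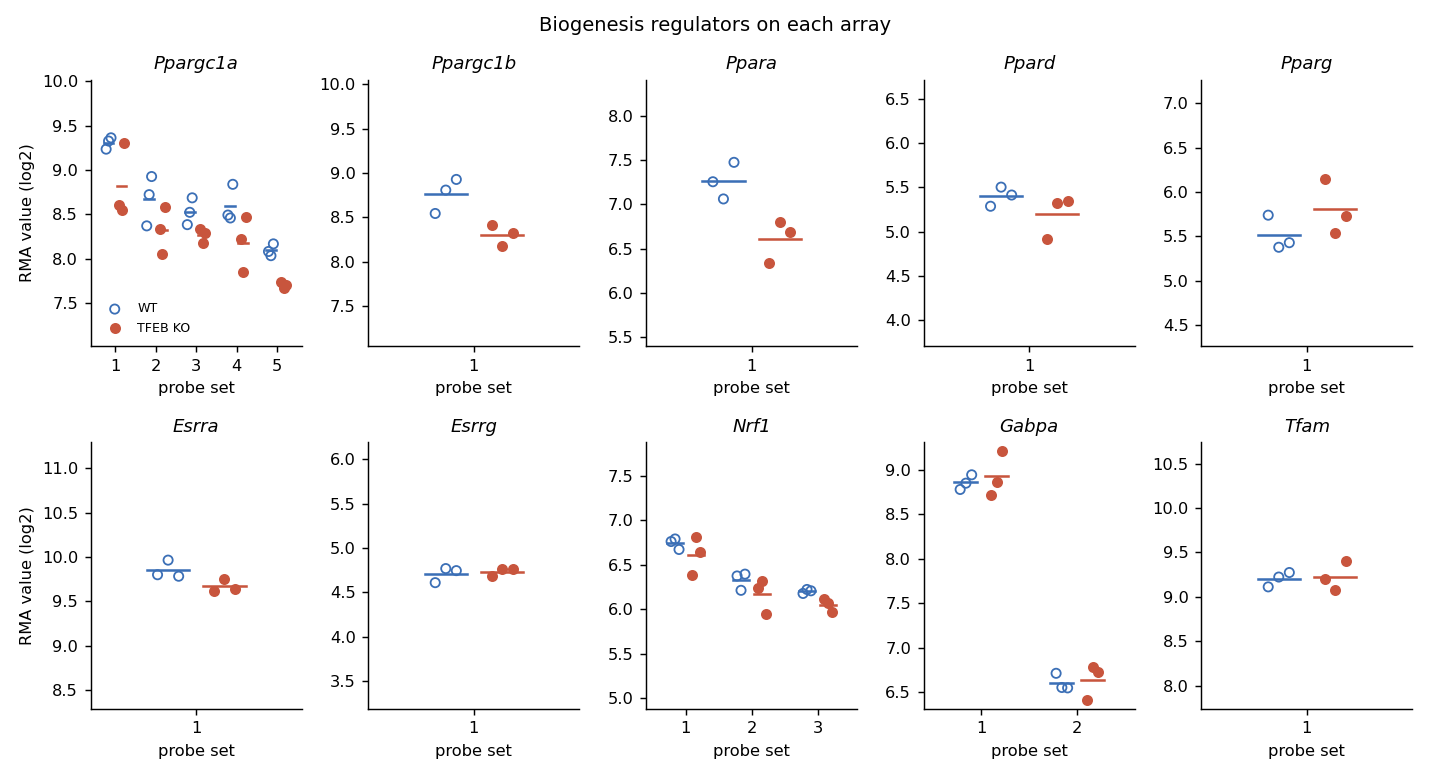
RMA value (log2, vertical axis, each panel spanning the same number of log2 units) of every probe set of the 10 regulators, brightest first, in 3 WT (open) and 3 TFEB KO (filled) mice, with a line at each group mean. The points of the groups are apart for Ppargc1b, Ppara and Esrra, for probe sets 3 and 5 of Ppargc1a and for probe set 3 of Nrf1, and Tfam and Esrrg show overlapping points.

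Ppargc1a, which encodes PGC1α, read lower in TFEB KO muscle on all 5 of its probe sets, by 0.26 to 0.49, with 0 of them past the test. Its brightest probe set read 9.24, 9.33 and 9.36 in WT muscle and 8.61, 8.55 and 9.31 in TFEB KO muscle. Thus KO 1 and KO 2 lay well below the WT arrays, while KO 3 lay among them. The difference was -0.49 (SE 0.19, 95% confidence interval -0.92 to -0.05, adjusted p = 0.24 from limma), and it depended on single TFEB KO arrays. It was -0.73 without KO 3, past the test (adjusted p = 0.042), but -0.38 without KO 1 (adjusted p = 0.39) and -0.35 without KO 2 (adjusted p = 0.41).

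The dimmest probe set of Ppargc1a separated the groups most clearly. It read 8.08, 8.04 and 8.17 in WT and 7.74, 7.67 and 7.70 in TFEB KO muscle. The spread within each group was small against the gap of 0.30 between the nearest arrays, and here KO 3 was as low as KO 1 and KO 2. The difference was -0.39 (SE 0.087, 95% confidence interval -0.59 to -0.19, adjusted p = 0.067 from limma), or 1.31-fold lower, and it passed the test (adjusted p = 0.048) where dim probe sets of other genes were left out before the adjustment. The probe set ranked 3 by brightness was also apart, by a gap of only 0.048, with 8.39, 8.52 and 8.69 in WT and 8.34, 8.17 and 8.29 in TFEB KO muscle (difference -0.26, adjusted p = 0.25). In the remaining 2, with differences of -0.42 and -0.35 (adjusted p = 0.26 and 0.36), the groups overlapped. Without KO 2 these were -0.25 and -0.21, and the second was -0.22 without WT 3. Averaged over its 5 probe sets, Ppargc1a deviated from the WT mean by -0.13, -0.03 and 0.16 in the WT arrays and by -0.39, -0.58 and -0.17 in the TFEB KO arrays. All 5 probe sets of each TFEB KO array lay below their WT mean, as did all 5 of WT 1, which differed from KO 3 by little. The probe sets of a gene share the RNA of the same 6 mice and are not replicates of the comparison.

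Ppargc1b, which encodes the related coactivator PGC1β, read 8.54, 8.81 and 8.93 in WT and 8.42, 8.17 and 8.32 in TFEB KO muscle. All TFEB KO arrays lay below all WT arrays, with WT 1 the closest to them. The difference was -0.46 (SE 0.12, 95% confidence interval -0.74 to -0.17, adjusted p = 0.11 from limma), or 1.37-fold lower. It stayed between -0.56 and -0.37 with each array left out and did not pass in any of these fits (adjusted p = 0.11 to 0.28).

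**Figure D2:**
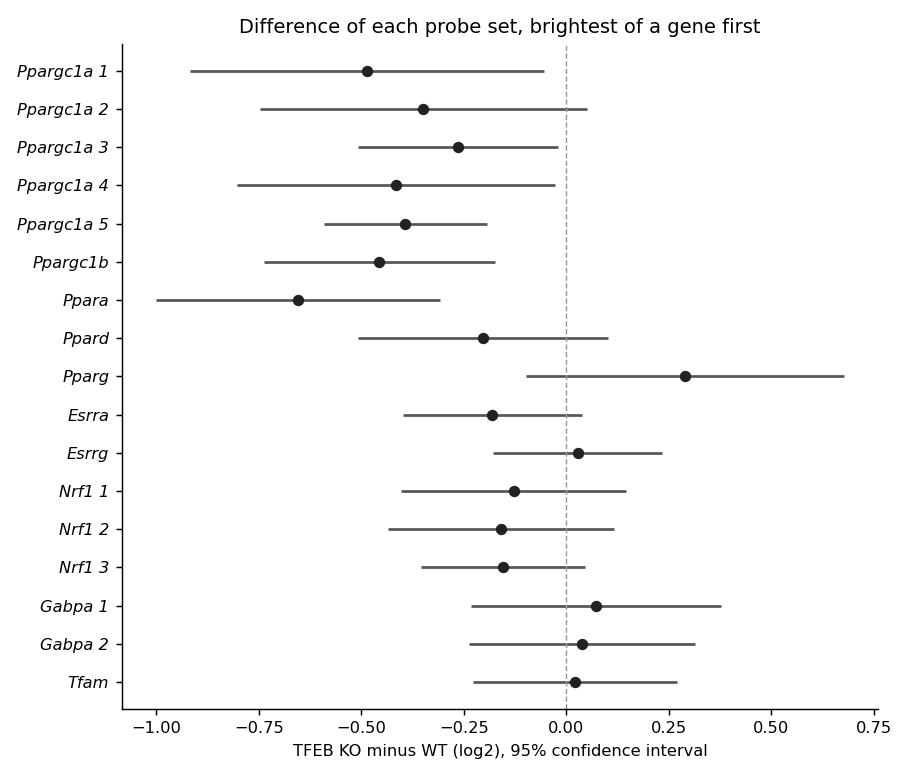
Difference between TFEB KO and WT muscle (log2, horizontal axis) for each of the 17 probe sets, with the 95% confidence interval from limma as a bar and the probe sets of a gene ordered from the brightest. The intervals of 6 probe sets, all of Ppargc1a, Ppargc1b or Ppara, lie below 0 before adjustment for the number of probe sets tested, and that of Tfam is centred near 0.

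Ppara, the fatty acid receptor that drives lipid oxidation in muscle, heart and liver, showed the largest difference of the 17 probe sets. It read 7.25, 7.06 and 7.47 in WT and 6.33, 6.80 and 6.69 in TFEB KO muscle, that is 7.26 ± 0.21 and 6.61 ± 0.24 (SD, n = 3 mice each). The groups were apart by 0.26, and KO 1 was the lowest. The difference was -0.65 (SE 0.15, 95% confidence interval -1.0 to -0.31), or 1.57-fold lower, and did not pass the test (adjusted p = 0.078 from limma, 0.096 to 0.24 with each array left out).

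Ppard and Pparg differed by less and their groups overlapped. Ppard, the PPAR that is prominent in oxidative muscle, read 5.29, 5.50 and 5.41 in WT and 4.92, 5.33 and 5.34 in TFEB KO muscle, a difference of -0.20 (95% confidence interval -0.51 to 0.10, adjusted p = 0.49 from limma). Most of this came from KO 1, without which it was -0.06. Pparg, the PPAR of adipocytes, which macrophages also express, was the only member with a difference above 0.1 in the upward direction. It read 5.74, 5.38 and 5.43 in WT and 6.15, 5.53 and 5.73 in TFEB KO muscle (difference 0.29, 95% confidence interval -0.10 to 0.68, adjusted p = 0.44), and 0.12 without KO 1, its highest array. KO 1 was also the array with the most adipocyte signal: the 8 measured of 10 adipocyte markers had a median deviation from the WT mean of 0.98 in KO 1, but of -0.18 in KO 2 and -0.18 in KO 3, and of -0.21 to 0.20 in WT muscle. Their mean level was 9.14 in KO 1 and 7.68 to 8.18 in the other arrays. Macrophage markers were also highest in KO 1, with a median deviation of 1.49. It was 0.86 in KO 2, 0.84 in KO 3 and -0.43 to 0.34 in WT muscle. These markers moved with genotype, and their mean levels are given below. The part of either cell type in the values of Pparg was not tested, and in whole muscle fewer cells of a type and less RNA per cell cannot be told apart.

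Of the ERRs, Esrra, the partner of PGC1α on genes of oxidative phosphorylation, read 9.80, 9.96 and 9.78 in WT and 9.62, 9.75 and 9.64 in TFEB KO muscle. The groups were apart by only 0.030, and the difference was -0.18 (SE 0.095, 95% confidence interval -0.40 to 0.04, adjusted p = 0.39 from limma). Esrrg, the ERR enriched in oxidative muscle, read 4.61, 4.77 and 4.75 in WT and 4.68, 4.76 and 4.76 in TFEB KO muscle, which overlapped throughout (difference 0.03, 95% confidence interval -0.18 to 0.23, adjusted p = 0.92). Its probe set is dim. Probe sets of 18 genes of other organs, taken as silent in muscle, had mean values of 3.00 to 6.53, and those of Esrrg, Ppard, Pparg and the dimmer probe sets of Nrf1 lay within this range, so a change of these transcripts could be missed.

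Of the nuclear respiratory factors, Nrf1 read somewhat lower on each of its probe sets, none past the test, and Gabpa stood near 0. Nrf1, a factor that binds the promoters of many respiratory chain genes, read 6.76, 6.79 and 6.67 in WT and 6.39, 6.81 and 6.64 in TFEB KO muscle on its brightest probe set, where KO 1 was low and KO 2 was the highest of all arrays (difference -0.13, 95% confidence interval -0.40 to 0.15, adjusted p = 0.64 from limma). The difference was -0.02 without KO 1 and -0.23 without KO 2. Its other probe sets gave -0.16 (adjusted p = 0.55, and -0.05 without KO 3) and -0.15 (adjusted p = 0.42). The latter, the dimmest, read 6.18, 6.22 and 6.21 in WT and 6.12, 6.07 and 5.97 in TFEB KO muscle, apart by 0.063.

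Gabpa, the subunit that binds DNA in the GABP complex, read 8.78, 8.85 and 8.95 in WT and 8.72, 8.87 and 9.21 in TFEB KO muscle, with the highest and the lowest array both from the KO group. The difference was 0.07 (95% confidence interval -0.23 to 0.38, adjusted p = 0.84 from limma), and 0.04 on its other probe set (adjusted p = 0.91). Nfe2l2 read 8.97, 8.97 and 9.25 in WT and 9.05, 9.34 and 9.43 in TFEB KO muscle (difference 0.21, 95% confidence interval -0.09 to 0.51, adjusted p = 0.46), with overlap between the groups. Neither gene that goes by the name NRF2 passed the test.

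Tfam, the last step of the cascade toward mitochondrial DNA, read 9.11, 9.22 and 9.27 in WT and 9.20, 9.08 and 9.40 in TFEB KO muscle. The groups overlapped, and the difference was 0.02 (SE 0.11, adjusted p = 0.95 from limma). The 95% confidence interval of -0.23 to 0.27 runs from 1.17-fold lower to 1.21-fold higher, so a larger change of Tfam in either direction lay outside it.

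Genes around the members were read from 6 lists, each gene by its brightest probe set. These lists too were chosen with earlier results of these data known. Of other coactivators and corepressors, 11 of 15 were measured, and 0 passed the test (median difference 0.02, 0 at an unadjusted p under 0.05 from limma). The smallest p-values were those of the deacetylase Sirt1, which acts on PGC1α (0.37, adjusted p = 0.31), and the coactivator Ncoa3 (0.16, adjusted p = 0.47), and the groups overlapped in both. Sirt1 read 0.24 without WT 2 or KO 3 and Ncoa3, whose level lay in the range of the silent genes, 0.086 without WT 1. Perm1, Ncor1 and Ep300 were among those with no probe set of their own. Of other DNA-binding partners, 13 of 14 were measured (not Gabpb2), with 0 past the test, a median of -0.08, and 1 gene in each direction at an unadjusted p under 0.05. These were the RXR isoform Rxrb (0.30, adjusted p = 0.27), RXRs being the partners with which PPARs bind DNA, and the immediate early receptor Nr4a1 (-0.61, adjusted p = 0.21).

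Of the kinases, phosphatase and factors that control Ppargc1a, 13 of 18 were measured, with a median of -0.03. Past the test 1 rose (0.871% of all genes did) and 0 fell (0.702% of all genes did). The AMPK subunits Prkaa1, Prkaa2, Prkab2 and Prkag3 and the deacetylase Hdac4 had no probe set of their own. The gene that rose was Rcan1, an inhibitor of the phosphatase calcineurin that is itself induced by calcineurin activity. Rcan1 read 10.15, 10.58 and 10.51 in WT and 11.50, 11.40 and 11.54 in TFEB KO muscle. All TFEB KO arrays lay well above all WT arrays. The difference was 1.06 (SE 0.13, adjusted p = 0.015 from limma) on the brightest probe set and 0.85 (adjusted p = 0.031) on the other. Without KO 2 the call was lost (adjusted p = 0.052). In that fit 30 probe sets of the whole table were higher and 14 lower, against 170 and 191 with all arrays. The calcineurin subunits Ppp3ca and Ppp3cb, named after their values were seen, showed differences of -0.11 and -0.19 (adjusted p = 0.63 and 0.40).

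Of genes that replicate and transcribe mitochondrial DNA, the processes in which TFAM acts, 12 of 14 were measured (not Twnk and Mterf1a), with 0 past the test and a median of 0.09. The 2 with an unadjusted p under 0.05 both read higher, the single-strand binding protein Ssbp1 (0.28, adjusted p = 0.24 from limma) and Mterf4, which acts in mitochondrial ribosome assembly (0.24, adjusted p = 0.28). Of PPAR targets, 20 of 24 were measured (Cpt1b and Ucp2 were among those not measured). Again 0 passed the test, 14 lay below 0 (53.4% of all genes did), and the median was -0.09. Those with an unadjusted p under 0.05 went both ways, 4 higher (Pdk4, Cd36, Angptl4 and Plin2) and 2 lower (Hadha and Slc27a1), beside 8.49% and 8.66% of all genes. Pdk4, which shuts pyruvate out of the citrate cycle and is a classical PPAR target, read 11.80, 12.71 and 12.01 in WT and 12.69, 12.85 and 13.07 in TFEB KO muscle (difference 0.70, adjusted p = 0.16), with WT 2 among the TFEB KO arrays. The fatty acid transporter Cd36 read 11.42, 11.23 and 11.23 in WT and 11.55, 11.52 and 11.72 in TFEB KO muscle (difference 0.30, adjusted p = 0.18), with the groups apart. Its other probe sets gave 0.27 (adjusted p = 0.20, groups apart) and 0.27 (adjusted p = 0.30, groups overlapping). Pdk4 and Cd36 were thus higher on average, beside the lower values of Ppara.

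**Figure D3:**
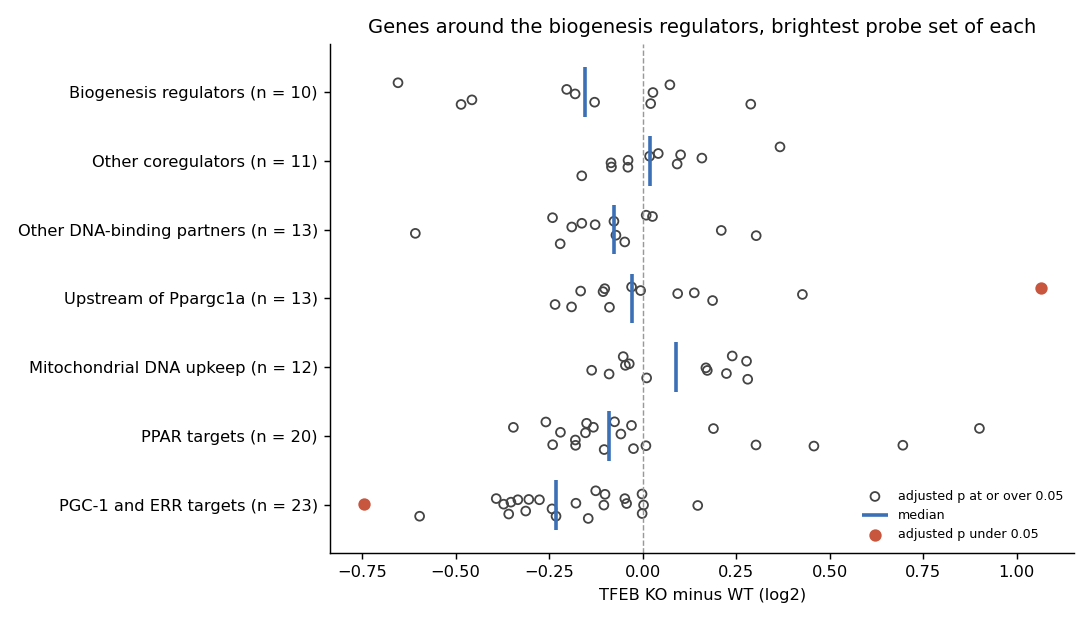
Difference between TFEB KO and WT muscle (log2, horizontal axis) for each measured gene of the 10 regulators and of 6 lists around them, 1 point per gene by its brightest probe set, with the list median as a bar and filled points for genes past the test. The filled points are Rcan1 at 1.06 and Gpd2 at -0.74, and the bar of the PGC-1 and ERR targets stands at -0.23.

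Targets of PGC-1 and the ERRs in oxidative metabolism lay below 0 in most cases. Of 24 listed, 23 were measured, 21 lay below 0, and the median was -0.23, beside 53.4% below 0 and a median of -0.01 over all genes. Past the test 1 gene fell (0.702% of all genes did) and 0 rose (0.871% of all genes did). At an unadjusted p under 0.05 from limma 12 of 23 were lower, where 8.66% of all genes were. Genes of the respiratory chain and ATP synthase, cytochrome c (Cycs) among them, lay below 0 in 13 of 13 cases. They ran from -0.39 to -0.0013 with a median of -0.13, and Uqcrc2 (-0.0013) and Cycs (-0.0016) were hardly below 0. At an unadjusted p under 0.05 from limma 5 were lower (Uqcrc1, Atp5a1, Sdhb, Sdhd and Atp5b), and 0 were past the test. The 4 enzyme genes of the citrate cycle and pyruvate dehydrogenase, which were Cs, Idh3a, Mdh2 and Dlat, read -0.28 to -0.37. Of these 0 were past the test, and each had its groups apart and lower (13.3% of all probe sets did). The list was chosen with earlier results of these data known, and this division of it was made after the values were seen. The gene that fell was Gpd2, the mitochondrial glycerol-3-phosphate dehydrogenase. Its values were 10.83, 11.01 and 11.12 in WT and 10.33, 10.22 and 10.18 in TFEB KO muscle, with no overlap. The difference was -0.74 (SE 0.10, adjusted p = 0.022 from limma), and the call was kept only without KO 1 and lost without each other array (adjusted p = 0.061 to 0.087). Calls over the whole table were also fewer without each of those arrays, and more without KO 1.

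The muscle was checked against markers, and those of some cell types moved with genotype. Fast fiber and skeletal muscle markers had mean levels of 14.42 to 14.46 in WT and 14.36 to 14.42 in TFEB KO arrays, with 0 of 12 past the test. Of these markers, 4 were apart and lower (Myh2, Atp2a1, Casq1 and Acta1), beside 13.3% of all probe sets. Apart and higher was 1 (Mylpf), beside 9.77% of all probe sets. The largest difference was that of Myh2, a myosin of oxidative fast fibers (-0.57, adjusted p = 0.098 from limma, apart by 0.25). Slow fiber markers, whose fibers are rich in mitochondria and in PGC1α, lay below 0 in 10 of 10 cases (53.4% of all genes did). Their median was -0.58, and 0 were past the test. At an unadjusted p under 0.05 from limma, 5 of 10 were lower (8.66% of all genes). The groups were apart and lower in 3 (Myh7, Myl3 and Myl2), beside 13.3% of all probe sets. Myh7, the slow myosin, differed by -1.40 (adjusted p = 0.069 from limma, apart by 0.41). Their mean levels were 12.01, 12.16 and 11.03 in WT and 10.86, 11.25 and 11.23 in TFEB KO arrays. The mean level of WT 3 lay within the range of the TFEB KO arrays. Ppargc1a, Ppargc1b and Ppara were highest in WT 3. Brown adipocyte markers (5 of 6 measured) had mean levels of 6.22 to 6.39 in WT and 6.20 to 6.49 in TFEB KO arrays, with 0 past the test. Of 15 macrophage markers, 7 rose (0.871% of all genes did) and 0 fell. All 15 were apart and higher in TFEB KO muscle, beside 9.77% of all probe sets. Their mean levels were 6.78 to 7.47 in WT and 8.08 to 8.64 in TFEB KO arrays. Of 10 endothelial markers, 6 fell (0.702% of all genes did) and 10 lay below 0 (53.4% of all genes did). Their mean levels were 7.81 to 7.91 in WT and 7.15 to 7.26 in TFEB KO arrays. The part of fiber types and of these cells in the values of the 10 regulators and their targets was not tested. Tfeb itself read 8.61, 8.55 and 8.96 in WT and 7.10, 7.23 and 7.04 in TFEB KO muscle (difference -1.58, adjusted p = 0.0079 from limma), and the sources used here do not place its probe set inside or outside the floxed exons. Correlations between arrays over all probe sets were 0.992 to 0.9967 within a group.

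**Figure D4:**
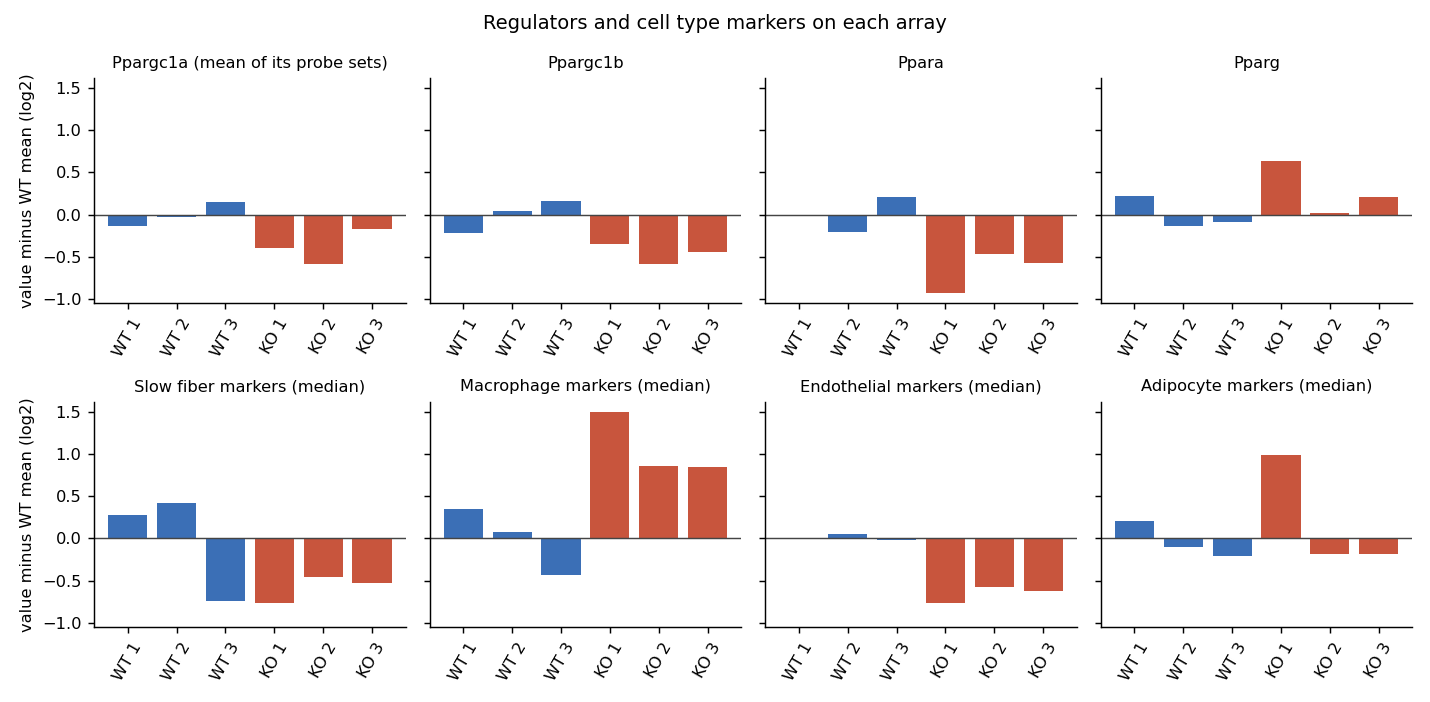
Deviation of each array from the WT mean (log2, vertical axis) for Ppargc1a (mean of its 5 probe sets), Ppargc1b, Ppara and Pparg and for 4 lists of cell type markers (median of the list), with WT arrays in blue and TFEB KO arrays in red. Ppargc1b and Ppara are below 0 in each TFEB KO array. Pparg is highest in KO 1, the array with the highest adipocyte (0.98) and macrophage (1.49) markers. Slow fiber markers are low in WT 3 as well (-0.74).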

How the data were processed

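The authors deposited log2 values for 22690 probe sets, made with RMA through the R package affy (versions not given in the sources used here). RMA sets all arrays to the same distribution of values, so changes common to most genes are not seen here. The 64 control probe sets of Affymetrix were dropped, and the other 22626 were fitted in R 4.3.3 by lmFit and eBayes of limma 3.58.1. Tests were two-sided, with Benjamini-Hochberg adjustment over the whole table and an adjusted p threshold of 0.05. The platform annotation gave 1 gene symbol to 20380 probe sets, several to 691 and none to 1555. Of the first, 20351 were found by Entrez ID in the RefSeq table, which changed 0 symbols. A gene in a list is read by its brightest probe set.

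The methods' t-test is the two-tailed test of Student. The named genes are the members, Tfeb, and from each pathway list the genes past the test or, where there were none, the 2 with the smallest p. Nfe2l2, Ppp3ca, Ppp3cb, Angptl4, Plin2, Hadha, Slc27a1, Uqcrc1, Atp5a1, Sdhb, Sdhd, Atp5b, Cs, Idh3a, Mdh2, Dlat and single fiber markers fall outside this rule and were picked with their values known. The members and lists were chosen with earlier results of these data known. The fit was tested on simulated data. Sequences are from RefSeq (GRCm38.p6) and, for CLEAR sites, from the study's supplement. Sequences and plots were handled with pandas 2.3.3, matplotlib 3.10.9 and NumPy 2.4.6 under Python 3.11.15. Alternatives were another normalization, scaling, filter, moderation, weighting, test or summary of probe sets, a minimum of 1.5-fold, controls kept, the replicate number as a block, and each array left out. Arrays give no depth, and their number limits precision. Some listed genes are not reported here by name.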

Additional observations from a re-analysis of the deposited data

How the results depend on the processing

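The members' probe sets past the test stayed at 0 in either direction under all alternatives, except that 1 was lower where dim probe sets were left out (1 of Ppargc1a), 0 to 1 with each array left out (1 without KO 3, the brightest of Ppargc1a) and 4 by the methods' t-test without adjustment. Where the lowest 40% of probe sets were left out, Ppard, Pparg and Esrrg had no value. Differences near 0 changed sign: Tfam read -0.015 under a second quantile normalization, and with each array left out the differences ran from -0.021 (without WT 1) to 0.058 for Esrrg, from -0.066 (without KO 3) to 0.178 for Gabpa, and from -0.065 (without KO 3, and also below 0 without WT 1) to 0.094 for Tfam. Upstream genes that rose numbered 0 by the methods' t-test after adjustment and 0 to 1 with each array left out. PPAR targets numbered 1 higher and 2 lower by that test without adjustment. PGC-1 and ERR targets that fell numbered 4 under trended and robust moderation, 2 under array weights, 2 where a gene's probe sets were averaged, 12 and 0 by the methods' t-test without and with adjustment, and 0 to 2 with each array left out (2 without KO 1). The cause of these changes was not tested. The labels give the arrays only a replicate number in common. Deviations of same-numbered arrays correlated at 0.088, 0.048 and 0.27, and those of differently numbered arrays at -0.25 to 0.17. With the replicate block, 173 probe sets were higher and 124 lower in the whole table, against 170 and 191 without it, and 0 of the members' probe sets passed. Rcan1 and Gpd2 kept their calls with the replicate block (adjusted p = 0.024 and 0.041 from limma). Signal near background limits what can be said of Ppard, Pparg and Esrrg.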
